A study of Mus musculus with 18 samples.

Results

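Tumor cells sorted from pancreatic tumors of mice with intact Saa3 were compared with the fibroblasts sorted from such tumors (cancer-associated fibroblasts, CAF). The comparison holds the 4 libraries labelled as wild-type tumor cells (WT_tumor 1 to 4) and the 5 labelled as wild-type CAF (WT_CAF 1 to 5), which are 9 of the 18 libraries of the series. The libraries were chosen by label alone. Mice of both groups carried Trp53lox/lox, Elas-tTA/tetO-Cre and Rosa26+/EYFP, so that Cre depends on an elastase promoter, which drives expression in acinar cells. The fibroblasts thus carried the same floxed Trp53 and the same reporter as the tumor cells. The 6 libraries of the knockout pair (KO_tumor and KO_CAF, 3 each), used for a side comparison, came from mice with the same alleles and Saa3-/-. Poly(A) RNA was sequenced, and expression was deposited as FPKM, that is, fragments per length of transcript and per size of library. The sources used here do not give ages, sort markers or whether the tumor cells and fibroblasts share animals.

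Pancreatic ductal tumors hold glands of epithelial cells, joined by cadherins and claudins and filled with keratins, inside a dense stroma. The stroma is built by fibroblasts, which secrete collagens, proteoglycans and the enzymes that remodel them. Some CAF carry contractile proteins and others secrete cytokines such as interleukin 6. Growth factors pass between the compartments when the cells that make the ligand and those that make its receptor differ.

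Each library was first checked against the markers of its label. Krt8, a keratin of simple epithelium, stood at 1217, 1521, 1544 and 1188 FPKM in WT_tumor 1 to 4 and at 252, 9.91, 25, 10.5 and 116 in WT_CAF 1 to 5. Cdh17, an intestinal-type cadherin, stood at 73.2, 128, 72.5 and 90.4 FPKM in the tumor cells and at 6.23, 0.591, 0.301, 0.827 and 3.70 in the fibroblasts. The groups did not overlap for either gene, and the library labelled WT_CAF 1 was the highest fibroblast library for both. Mmp2, a gelatinase of fibroblasts, stood at 2.67, 1.84, 25.6 and 3.63 FPKM in the tumor cells against 35.9, 1456, 1027, 1380 and 1143 in the fibroblasts. Pdgfra, a platelet-derived growth factor receptor, stood at 0.105, 0.460, 1.86 and 0.318 FPKM against 9.79, 122, 84.8, 117 and 81.0. Here too the groups did not overlap, and the library labelled WT_CAF 1 was the lowest fibroblast library for both genes.

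The library labelled WT_CAF 1 lay apart from WT_CAF 2 to 5 and toward the tumor cells. On the first principal component of the 9 libraries (52.5% of the variance of log2(FPKM + 1)) it scored 32.0, against -98.0 to -72.5 for the other WT_CAF and 66.6 to 93.8 for the tumor cells. Its Spearman correlation over genes was 0.942 with WT_tumor 4, its closest library, and 0.889 to 0.911 with WT_CAF 2 to 5. With WT_tumor 1, 2 and 3 it was 0.915, 0.887 and 0.912. By this measure the library labelled WT_CAF 1 was closer to WT_tumor 1, 3 and 4 than to any of WT_CAF 2 to 5. It lacked some tumor cell genes, such as Krt7 at 0.472 FPKM and Agr2 at 0.268, while Pdx1 stood at 17.7, above all 4 tumor libraries. It lay closer to the tumor mean than to the mean of WT_CAF 2 to 5 at 694 of the 1210 genes higher in tumor cells and at 1289 of the 1670 lower. The number of called genes in each list below is therefore also given for a fit that leaves out both this library and the library format term described below, called the reduced fit. WT_tumor 4 held less of several epithelial genes than WT_tumor 1 to 3 (Epcam at 2.60 FPKM against 129 to 549) at a like level of Krt8. Of the tumor libraries, WT_tumor 3 had the highest mean log2(FPKM + 1) of the fibroblast marker list (3.48 against 1.73 to 2.13), with Dcn at 86.5 FPKM against 2.28 to 5.53. The list of mesenchymal transcription factors was instead highest in WT_tumor 4 (1.69, against 1.35 in WT_tumor 3). WT_CAF 5 had a higher mean of the epithelial adhesion list than WT_CAF 2 to 4 (2.19 against 0.867 to 1.08), and Elf3 at 9.19 FPKM against 0.104 to 0.407. The origin of these transcripts was not tested. The 9 libraries summed to between 396646 and 627869 FPKM, with 10657 to 11670 genes at 1 FPKM or more, and the number of fragments behind them is unknown. In RNA of a sorted population, fewer cells of a type and less RNA per cell cannot be told apart.

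**Figure D1:**
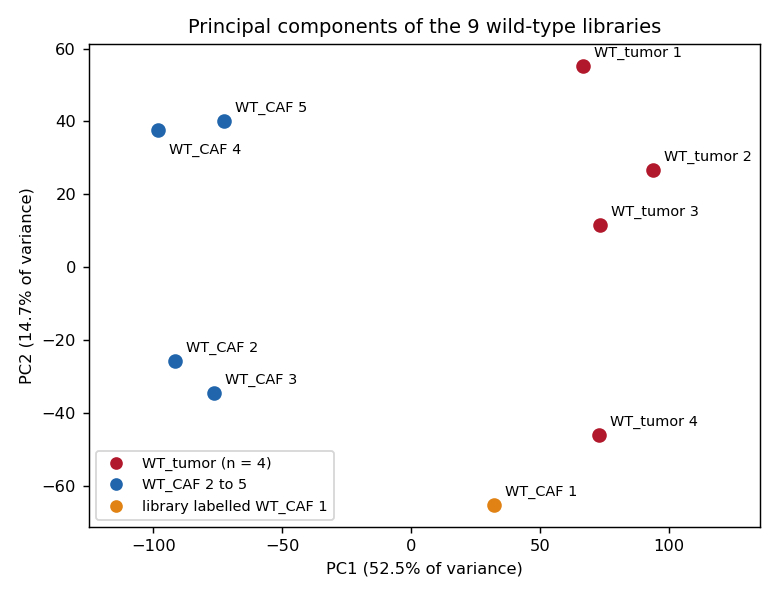
Principal component plot of the 9 libraries, computed on log2(FPKM + 1) over the genes tested, with component 1 on the horizontal and component 2 on the vertical axis and the variance explained in percent; each point is 1 library, numbered by replicate. The 4 tumor libraries lie at 66.6 to 93.8 on the first component, WT_CAF 2 to 5 at -98.0 to -72.5, and the library labelled WT_CAF 1 at 32.0.

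Across all genes, the comparison asks which transcripts part tumor cells from the fibroblasts of the same kind of tumor. Of 13369 genes tested, 1210 (9.05%) were higher in WT_tumor and 1670 (12.5%) were lower (limma, adjusted p under 0.05), 2880 (21.5%) in all. The difference was called the log2 difference, tumor cells minus fibroblasts on log2(FPKM + 1), and is given with its standard error. The median over all genes was 0.07. The fibroblast side held the larger differences: 129 genes were lower by 5 or more on the log2 scale and 20 were higher by as much. Groups did not overlap for 1694 genes (12.7%), and for 3827 (28.6%) once WT_CAF 1 was left out. The form of the index in the labels, taken as a library format, was a term of the model, and with it WT_CAF 1 and 2, which have no index, do not enter the size of a difference. These 2 libraries still enter the estimate of spread, and so the calls. Leaving out WT_CAF 1 with the term kept gave 1552 genes higher and 2003 lower. Without that term, which lets all 5 WT_CAF enter, 1239 genes were higher (9.27%) and 1572 lower (11.8%). In the reduced fit, without the term and without WT_CAF 1, 1793 were higher (13.4%) and 2238 lower (16.7%), 30.2% of the genes in all. Of the 1210 genes higher in the model with the term, 881 and 1064 were also called higher in these fits, and of the 1670 lower, 1357 and 1563 were also called lower. Leaving out WT_CAF 3, the only WT_CAF library with a 6-base index, left 436 higher and 758 lower. Leaving out WT_tumor 1, the only WT_tumor library with a 16-base index, left 748 and 1079, and leaving out WT_CAF 4 left 744 and 1288.

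The largest differences upward among genes with non-overlapping groups included membrane proteins of gland epithelium. Tspan8, a tetraspanin of the gut, stood at 75.2, 330, 701 and 306 FPKM in WT_tumor 1 to 4 and at 57.1, 1.52, 1.45, 0.777 and 5.53 in WT_CAF 1 to 5 (log2 difference 6.04 ± 0.96, adjusted p = 0.00104). Tm4sf4, a four-span membrane protein of gut and liver, stood at 351, 234, 90.1 and 62.5 FPKM against 15.6, 0.0557, 0.590, 0.435 and 20.9 (5.83 ± 1.03, adjusted p = 0.00189). Lad1 (ladinin, of the basement membrane zone) stood at 73.0, 89.9, 92.5 and 91.8 FPKM against 3.41, 0.418, 0.0468, 1.83 and 8.10 (5.34 ± 0.62, adjusted p = 0.000217). Its tumor values were the most even of these 3 genes. Snora7a, a small nucleolar RNA, stood at 130, 33.2, 22.4 and 40.8 FPKM and at 21.9 in the library labelled WT_CAF 1, and is listed at 0 in WT_CAF 2 to 5 (adjusted p = 0.0159, ended without WT_tumor 1). In the knockout pair it was not called, at 0, 97.2 and 0 FPKM in KO_tumor and 0 in every KO_CAF library (adjusted p = 0.351). A library of normal fibroblasts lists it at 0 where the rule for failed estimates given below was met.

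Serpina3n, Serpinf1, C1s1 and Itm2a were among the 12 genes with the largest differences downward without overlap between the groups, and the other 8 (Mgp, Cpxm1, Mmp2, Hp, Bgn, Pi16, Mfap4 and Mfap5) are given further on. Serpina3n, an acute-phase protease inhibitor, stood at 2.91, 2.12, 7.79 and 0.512 FPKM in the tumor cells and at 17.7, 2019, 317, 1621 and 750 in the fibroblasts (log2 difference -7.43 ± 1.26, adjusted p = 0.00155). Serpinf1 (pigment epithelium-derived factor, an inhibitor of vessel growth) stood at 2.25, 1.11, 41.8 and 3.93 FPKM against 51.5, 730, 1131, 1059 and 759 (-7.45 ± 1.16, adjusted p = 0.000989). C1s1, a complement protease, stood at 0.479, 0.686, 8.67 and 0.573 FPKM against 12.5, 604, 279, 693 and 294 (-7.22 ± 1.06, adjusted p = 0.000766). For all 3 genes WT_tumor 3 was the highest tumor library and the library labelled WT_CAF 1 the lowest fibroblast library, and the groups stayed apart. Itm2a, a membrane protein, differed by -7.15 ± 1.16 (adjusted p = 0.00120).

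Epithelial adhesion and junction genes were higher in the tumor cells. Of 31 genes on that list, 26 were called higher and 0 lower, with a median log2 difference of 3.02 against 0.07 over all genes. Without the format term 30 were higher, and 29 with WT_CAF 1 also left out. Cdh1 (E-cadherin, the adherens junction protein of epithelium) stood at 86.8, 144, 174 and 46.5 FPKM in the tumor cells and at 10.1, 0.980, 0.391, 0.815 and 4.78 in the fibroblasts, a log2 difference of 5.45 ± 0.72 (adjusted p = 0.000512). The tumor libraries lay above every fibroblast library. Cldn2, a claudin of leaky tight junctions, stood at 103, 110, 152 and 54.7 FPKM against 3.58, 1.31, 0.287, 1.26 and 4.81 (log2 difference 5.47 ± 0.46, adjusted p = 5.09e-05), again without overlap. The difference for Cdh17 was 5.49 ± 0.55 (adjusted p = 0.000137). Cldn7, a claudin of simple epithelium, stood at 104, 202, 217 and 5.95 FPKM against 0.211, 0.430, 0.225, 0.691 and 10.6, so that WT_tumor 4 lay below WT_CAF 5. Its log2 difference was 5.12 ± 1.06 (adjusted p = 0.00465), and the call ended without WT_CAF 3 (adjusted p = 0.0527).

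Keratins of simple epithelium, the intermediate filaments of gland cells, had the highest median of the lists, 5.20, with 5 of 6 genes higher (6 in the reduced fit). Krt18, the partner of Krt8, stood at 1818, 1497, 1150 and 1109 FPKM in the tumor cells and at 245, 6.57, 18.5, 7.18 and 113 in the fibroblasts (log2 difference 5.99 ± 1.28, adjusted p = 0.00546). Krt8 differed by 5.54 ± 1.22 (adjusted p = 0.00632) and Krt19 by 4.86 ± 1.07 (adjusted p = 0.00632). Krt7 stood at 695, 517, 1347 and 134 FPKM against 0.472, 3.15, 2.54, 12.5 and 39.4 (log2 difference 5.85 ± 1.06, adjusted p = 0.00219). Krt7 thus differed from Krt8, Krt18 and Krt19 in the library labelled WT_CAF 1, where it was the lowest of the fibroblast values and the other 3 were the highest. Krt20 was the member not called, at 1.07, 171, 150 and 6.70 FPKM against 25.3, 0.562, 0.103, 0.389 and 0.734 (adjusted p = 0.0916).

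The promoters of these genes were searched for the letters CACCTG, which read CAGGTG on the other strand and are the E-box bound by the ZEB and SNAI families of repressors of epithelial genes. Promoters are the 250 bases before the start in RefSeq (GRCm38.p6), and the first listed start was used for each gene. The motif was in 4 of the 5 keratin promoters that the table holds and in 5 of the 16 adhesion gene promoters (31.2%), against 4620 of 27025 promoters of the whole table (17.1%) and 1520 of the 9950 that matched a gene tested (15.3%). It was in 215 of 884 promoters of the genes higher in tumor cells (24.3%) and in 154 of 1168 of the genes lower (13.2%). A match is a description of the letters and not a bound site. The promoters of 4 genes that hold it are shown, with the motif in capitals, so that its place can be read beside the levels of these epithelial genes. Epcam, an adhesion molecule from the fixed epithelial markers, stood at 129, 408, 549 and 2.60 FPKM in the tumor cells and at 0.220, 1.53, 0.552, 2.46 and 12.1 in the fibroblasts (log2 difference 5 ± 1.39, adjusted p = 0.0210, ended without WT_CAF 3, WT_CAF 4 or WT_tumor 1, up to 0.144). WT_tumor 4 lay below WT_CAF 5. The Epcam promoter is at chr17:87635729-87635978 on the + strand, Krt7 at chr15:101412153-101412402 on the + strand, Krt8 at chr15:102004343-102004592 on the - strand, and Krt18 at chr15:102027966-102028215 on the + strand.
Epcam: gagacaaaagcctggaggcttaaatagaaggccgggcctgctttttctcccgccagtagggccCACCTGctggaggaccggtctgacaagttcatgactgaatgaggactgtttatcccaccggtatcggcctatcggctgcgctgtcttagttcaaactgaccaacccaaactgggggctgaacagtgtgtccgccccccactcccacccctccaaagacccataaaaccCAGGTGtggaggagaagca
Krt7: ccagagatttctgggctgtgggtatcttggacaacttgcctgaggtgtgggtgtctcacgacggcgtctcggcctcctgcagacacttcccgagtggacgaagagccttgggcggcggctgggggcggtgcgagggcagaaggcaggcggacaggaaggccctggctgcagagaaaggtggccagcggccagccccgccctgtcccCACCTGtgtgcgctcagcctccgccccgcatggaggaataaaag
Krt8: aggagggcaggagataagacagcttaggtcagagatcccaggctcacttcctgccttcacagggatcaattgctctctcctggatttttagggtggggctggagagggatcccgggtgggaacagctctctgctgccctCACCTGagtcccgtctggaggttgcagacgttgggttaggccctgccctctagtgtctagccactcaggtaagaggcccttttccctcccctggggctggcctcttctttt
Krt18: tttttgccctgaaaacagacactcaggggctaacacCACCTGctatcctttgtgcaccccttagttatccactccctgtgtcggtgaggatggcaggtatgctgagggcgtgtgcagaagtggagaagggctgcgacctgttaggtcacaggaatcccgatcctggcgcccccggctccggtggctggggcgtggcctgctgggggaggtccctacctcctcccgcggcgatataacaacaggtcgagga
The motif began 187 and 19 bases before the start in Epcam, 44 in Krt7, 111 in Krt8 and 214 in Krt18.

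The factors that read such letters were looked at together with other mesenchymal regulators, and the next 6 were chosen after their values were seen. Whether any of them acts at the promoters above was not tested. Snai1, a repressor of Cdh1, stood at 2.25, 1.55, 4.15 and 2.08 FPKM in the tumor cells and at 23.8, 60.4, 106, 7.99 and 15.6 in the fibroblasts (log2 difference -3.69 ± 0.67, adjusted p = 0.0022), with no overlap. Zeb2 was lower in tumor cells (-1.79 ± 0.40, adjusted p = 0.0070), and so was Prrx1, a homeobox factor of mesenchyme (-3.85 ± 0.48, adjusted p = 0.00033). Zeb1 (-0.90 ± 0.39, adjusted p = 0.11), Snai2 (-0.44 ± 0.43, adjusted p = 0.49) and Twist1 (-1.60 ± 0.60, adjusted p = 0.070) were not called. Vim, the vimentin filament gene often used to mark mesenchyme and also chosen after its values were seen, was not called either: it stood at 627, 773, 180 and 2231 FPKM in the tumor cells and at 1288, 1852, 1478, 471 and 342 in the fibroblasts. The highest of these 9 values was in WT_tumor 4.

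Transcription and splicing factors of epithelium were less uniform. Of 12 tested, 6 were higher and 1 (Trps1) was lower, with a median of 1.88, and in the reduced fit 9 were higher and 1 lower. Elf3, an ETS factor of gland epithelium, stood at 40.3, 146, 124 and 7.74 FPKM against 0.290, 0.407, 0.104, 0.308 and 9.19 (log2 difference 4.26 ± 1.02, adjusted p = 0.00982; without WT_CAF 3, adjusted p = 0.125). Its groups overlapped because WT_CAF 5 lay above WT_tumor 4. Ehf, a related factor, stood at 5.99, 16.4, 44.8 and 4.19 FPKM against at most 0.546 in any fibroblast library (3.25 ± 0.60, adjusted p = 0.00240). Of 8 membrane proteases and their inhibitors, 6 were higher (8 in the reduced fit), with a median of 3.05: Prss22, a serine protease, stood at 41.2, 49.9, 106 and 38.9 FPKM against 0.318 to 2 in WT_CAF 2 to 5 and 7.39 in WT_CAF 1 (4.87 ± 0.69, adjusted p = 0.000648).

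**Figure D2:**
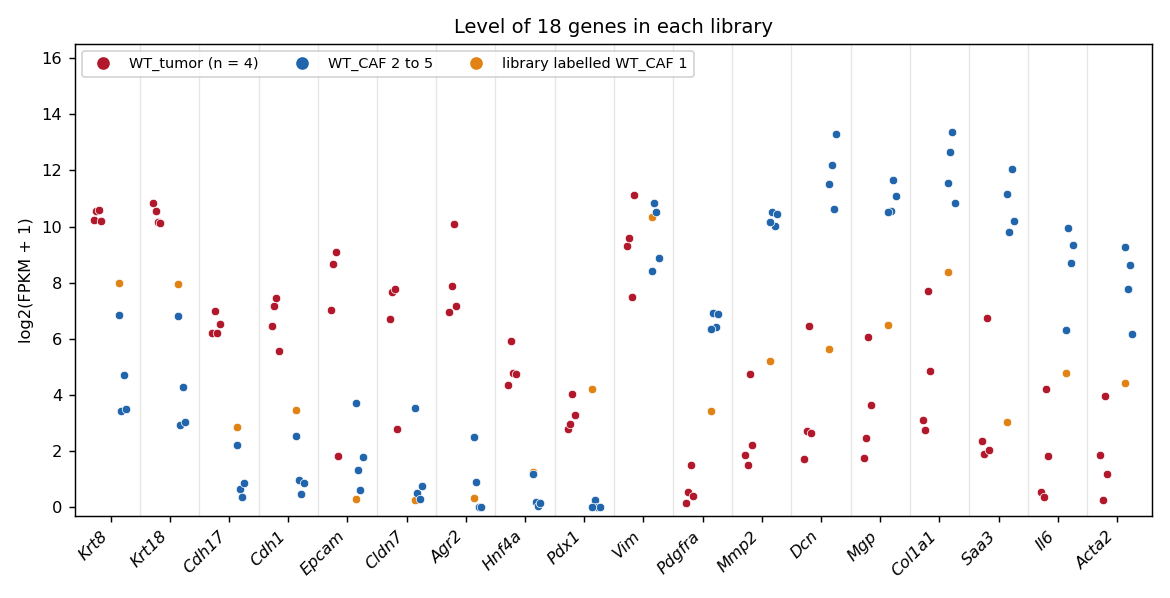
Level of 18 epithelial, mesenchymal and inflammatory genes in each of the 9 libraries as log2(FPKM + 1); each point is 1 library, with tumor cells in red, WT_CAF 2 to 5 in blue and the library labelled WT_CAF 1 in orange. Krt8 and Cdh17 lie higher in all 4 tumor libraries, Mmp2 and Pdgfra lower, and Vim overlaps between the groups.

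Of 19 genes of gastric-type mucous cells tested, 10 were higher in the tumor cells and 0 lower (13 and 0 in the reduced fit), with a median log2 difference of 3.90. Agr2, a folding enzyme of mucins, stood at 123, 232, 1083 and 142 FPKM and in the fibroblasts at 0.268, 0.867, 0, 0 and 4.66 (log2 difference 7 ± 0.86, adjusted p = 0.000312), the largest difference upward among genes named by the rule. Ctse, a gastric protease, stood at 93.8, 281, 411 and 46.6 FPKM against 4.43, 4.07, 0.356, 0.472 and 10.1 (5.74 ± 0.96, adjusted p = 0.00145). Neither gene overlapped between the groups. Tff2, a trefoil peptide of mucous neck cells, stood at 461, 600, 1399 and 10.8 FPKM against 0.238, 19.7, 1.59, 2.67 and 12.7, with WT_tumor 4 below WT_CAF 2 and 5. Its log2 difference was 5.75 ± 1.80 (adjusted p = 0.0358) and its call ended without WT_CAF 3 or 4 or WT_tumor 1, 2 or 3 (adjusted p up to 0.190). Gkn1, a gastrokine of surface mucous cells, stood at 334, 23.7, 101 and 0.668 FPKM against 0.0488, 2.01, 0, 0.0378 and 0.168 (5.10 ± 1.49, adjusted p = 0.0260). WT_tumor 4 lay below WT_CAF 2, and the call ended without WT_CAF 3, 4 or 5 or WT_tumor 1 or 3 (adjusted p up to 0.182).

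Transcription factors of pancreas and foregut followed, with 12 of 21 higher, 0 lower and a median of 1.69 (14 higher and 1 lower in the reduced fit). Hnf4a, a nuclear receptor of gut and liver epithelium, stood at 19.8, 59.4, 26.5 and 26.1 FPKM against 1.41, 0.139, 0.0459, 0.123 and 1.31 (log2 difference 4.46 ± 0.50, adjusted p = 0.000198). Foxa2, a forkhead factor of endoderm, stood at 15.6, 18.5, 17.4 and 18.4 FPKM against 6.83, 0.223, 0.234, 0.0841 and 0.514 (3.83 ± 0.53, adjusted p = 0.000593). Both genes lay apart in the groups and varied little among the tumor libraries next to the gastric genes. Pdx1, the homeobox factor of pancreas and duodenum, stood at 6, 6.86, 15.6 and 8.79 FPKM, at 0.195, 0, 0 and 0 in WT_CAF 2 to 5, and at 17.7 in the library labelled WT_CAF 1 (3.18 ± 0.66, adjusted p = 0.00458). Onecut2, a regulator of duct and endocrine fate, had the same shape, at 5.94, 17.7, 36.8 and 18.2 FPKM against 7.17 in WT_CAF 1 and at most 0.151 in the others (3.62 ± 0.65, adjusted p = 0.00215).

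Acinar enzymes, the digestive products of the cells in which the elastase promoter acts, were not called in either direction: 0 of 22 tested were higher and 0 lower, at a median of 2.79, and 0 were called in the fits without the format term. The mean level of the list, on the log2(FPKM + 1) scale, was 8.14, 7.25, 5.04 and 0.80 in WT_tumor 1 to 4 and 0.88, 2.61, 3.21, 4.50 and 4.65 in WT_CAF 1 to 5. The tumor libraries thus spanned the range of the fibroblasts, and WT_tumor 4 and WT_CAF 1 were the lowest of the 9. Cela1, an elastase, stood at 423, 373, 36.5 and 5.47 FPKM against 12.8, 24.7, 15.9, 78.2 and 59.1 (log2 difference 1.81 ± 1.72, adjusted p = 0.471).

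On the fibroblast side, surface and identity markers were lower in tumor cells for 19 of 24 genes, with 0 higher and a median log2 difference of -4.96. Without the format term 19 were lower, and 20 in the reduced fit. Pdgfra differed by -5.99 ± 0.62 (adjusted p = 0.000142) and Mmp2 by -7.67 ± 1.09 (adjusted p = 0.000655). Dcn (decorin, a small proteoglycan that binds collagen) stood at 2.28, 5.53, 86.5 and 5.20 FPKM in the tumor cells and at 49.3, 4644, 1574, 9938 and 2962 in the fibroblasts (-8.31 ± 1.47, adjusted p = 0.00192). WT_tumor 3 lay above the library labelled WT_CAF 1, and without WT_CAF 1 the groups were apart. Pi16, a protease inhibitor of adventitial fibroblasts, stood at 0.415, 0.104, 2.45 and 0.863 FPKM against 12, 832, 305, 590 and 358 (-7.58 ± 1.28, adjusted p = 0.00148), with no overlap. The 5 members not called were Thy1, Ly6a, Gsn, S100a4 and Vim. Thy1, a surface glycoprotein, stood at 199 and 103 FPKM in WT_CAF 2 and 3 and at 3.55 and 1.35 in WT_CAF 4 and 5, against up to 10.2 in the tumor cells (adjusted p = 0.052).

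Of 41 matrix glycoproteins and proteoglycans, 33 were lower in tumor cells and 0 higher, at a median of -4.17, and in the reduced fit 35 were lower and 1 higher. Bgn (biglycan) stood at 2.10, 3.80, 126 and 9.37 FPKM in the tumor cells and at 159, 4590, 2875, 899 and 1142 in the fibroblasts (log2 difference -7.62 ± 1.27, adjusted p = 0.00141). Mfap4, a protein of elastic microfibrils, stood at 0.450, 0.067, 1.76 and 0.320 FPKM against 8.11, 529, 280, 295 and 253 (-7.23 ± 1.15, adjusted p = 0.00106), and Mfap5, another microfibril protein, differed by -7.22 ± 1.21 (adjusted p = 0.00147). Neither Bgn nor Mfap4 overlapped between groups, although the library labelled WT_CAF 1 held the lowest fibroblast value of each. Mgp, an inhibitor of calcification that fibroblasts secrete, stood at 2.35, 4.53, 65.6 and 11.4 FPKM against 88.8, 1506, 3240, 2177 and 1466 (-8.17 ± 1.18, adjusted p = 0.000705). Cpxm1, a secreted carboxypeptidase-like protein, differed by -7.87 ± 0.99 (adjusted p = 0.000356).

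Collagen chains were lower in tumor cells for 16 of 22 genes, at a median of -3.71, and higher for 1, Col18a1 (19 lower and 1 higher in the reduced fit). Col5a2, a chain of the fibrils' core, stood at 12.1, 1.30, 44.5 and 4.48 FPKM against 48.2, 718, 612, 197 and 282 (log2 difference -5.28 ± 1, adjusted p = 0.00284). Col6a3, a chain of beaded microfibrils, stood at 0.0591, 0.334, 5.95 and 0.975 FPKM against 7.16, 108, 124, 24.7 and 19.8 (-4.84 ± 0.93, adjusted p = 0.00295). The groups were apart for both, with WT_tumor 3 nearest to WT_CAF 1. Col18a1, a chain of basement membranes and source of endostatin, ran the other way, at 118, 100, 114 and 249 FPKM against 42.5, 39.3, 60.8, 26.9 and 15.6 (2.01 ± 0.56, adjusted p = 0.0214), and lost its call without WT_CAF 4, WT_CAF 5 or WT_tumor 1 (adjusted p up to 0.0744). Some abundant collagens are listed at 0 in some fibroblast libraries, which in FPKM files can be a failed estimate, and for these the values of each library are given. Col1a1, the main fibrillar collagen, stood at 7.70, 5.83, 208 and 28.1 FPKM against 331, 6494, 10435, 1838 and 3031, and is listed at 0 in KO_CAF 2, which enters the model. Its adjusted p was 0.052 with that zero kept and 0.0012 with it set to missing, at differences of -7.24 ± 2.49 and -7.89 ± 1.24. Col1a2, its partner chain, had -7.16 ± 2.42 (adjusted p = 0.0491) with the zero and -7.77 ± 1.35 (adjusted p = 0.0020) without it, and the first of these calls ended without WT_CAF 3, 4 or 5 or WT_tumor 1, 2 or 4 (adjusted p up to 0.235). Col3a1 stood at 12.2, 5.33, 180 and 20.4 FPKM in the tumor cells, at 314 and 5661 in WT_CAF 1 and 5, and is listed at 0 in WT_CAF 2 to 4.

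Matrix proteases and their inhibitors were lower for 17 of 27 genes and higher for 2, at a median of -2.72, and in the reduced fit 18 were lower and 5 higher. Serping1 (C1 inhibitor) stood at 4.04, 3.21, 104 and 3.92 FPKM against 58.6, 2889, 2074, 4564 and 2167 (log2 difference -8.07 ± 1.27, adjusted p = 0.00103). Mmp3 (stromelysin) stood at 5.34, 0.0568, 1.09 and 0.678 FPKM against 34.5, 147, 62.7, 548 and 199 (-5.60 ± 0.69, adjusted p = 0.000312). Mmp10, another stromelysin, ran the other way and unevenly, at 432, 2.04, 4.67 and 89.2 FPKM against 10.5, 3.45, 2.87, 0.467 and 3.29 (4.24 ± 1.35, adjusted p = 0.0382). Its high values were in WT_tumor 1 and 4, and its call ended without WT_CAF 4, WT_CAF 5, WT_tumor 1 or WT_tumor 4 (adjusted p up to 0.224, without WT_tumor 1) and in the fit without the format term (2.78, adjusted p = 0.125). Serpinb5 (maspin, a serpin of epithelium) stood at 9.49, 7.36, 34.5 and 0.850 FPKM against at most 0.264 (3.04 ± 0.69, adjusted p = 0.00754; 0.0549 without WT_CAF 3).

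**Figure D3:**
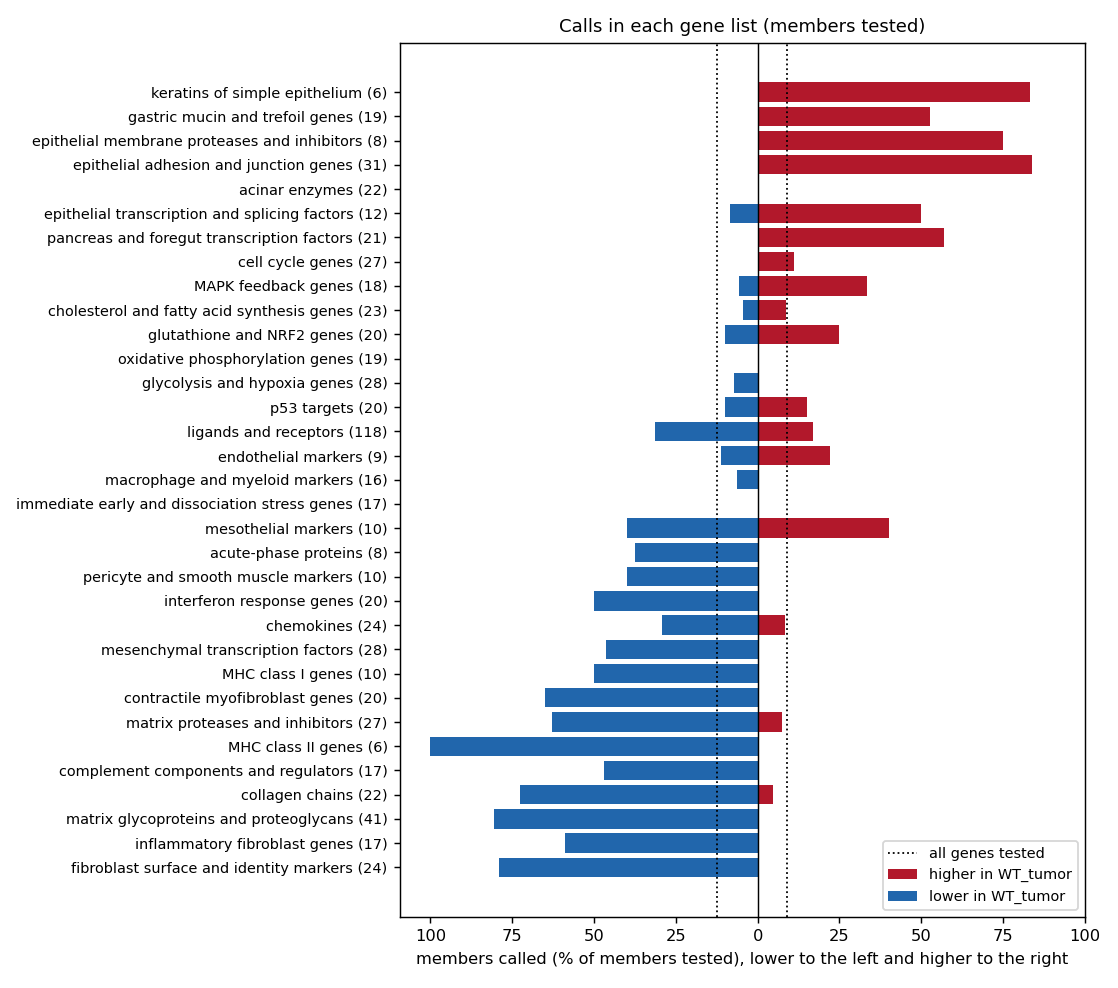
Share of each list's tested genes called higher (right) or lower (left) in WT_tumor than in WT_CAF, in percent, for the 33 lists with 5 or more tested genes; dotted lines mark the shares over all genes, 9.05% higher and 12.5% lower. Epithelial lists reach 83.9% higher and matrix, fibroblast and MHC class II lists extend to the left.

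Mesenchymal transcription factors were lower in tumor cells for 13 of 28 genes, with 0 higher and a median of -1.55 (15 and 0 in the reduced fit). Hic1, a zinc finger factor of mesenchymal progenitors, stood at 0.542, 0.193, 0.984 and 1 FPKM against 2.69, 27.4, 76.8, 33.2 and 29.3 (log2 difference -4.93 ± 0.64, adjusted p = 0.000461). Osr1, a factor of embryonic connective tissue, stood at 8.75, 2.62, 1.03 and 0.216 FPKM against 10.2, 42.3, 38.3, 122 and 44.2 (-4.0 ± 0.65, adjusted p = 0.00122). Both were apart in the groups, Osr1 only narrowly for WT_tumor 1 and WT_CAF 1. Tcf21, a helix-loop-helix factor of fibroblast precursors, stood at 0, 0.0425, 0.124 and 0 FPKM against 1.5, 42.2, 22.3, 30.8 and 14.2 (-4.25 ± 0.96, adjusted p = 0.00701), and lost its call without WT_CAF 3 (adjusted p = 0.0633).

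Contractile genes of myofibroblasts were lower for 13 of 20 genes, with 0 higher and a median of -2.58 (15 and 0 in the reduced fit). Acta2 (smooth muscle actin) stood at 2.61, 0.205, 14.7 and 1.27 FPKM against 20.5, 219, 394, 72.0 and 612 (log2 difference -6.30 ± 1.04, adjusted p = 0.00139). Myl9, a myosin light chain, stood at 1.28, 0.564, 8.52 and 1.08 FPKM against 6.72, 91.7, 308, 45.8 and 323 (-6.02 ± 0.96, adjusted p = 0.00108). WT_CAF 3 and 5 were the highest fibroblast libraries for both and WT_CAF 4 the lowest of WT_CAF 2 to 5.

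Inflammatory genes of fibroblasts were lower for 10 of 17 genes, with 0 higher and a median of -4.94 (13 and 0 in the reduced fit). Il6 (interleukin 6) stood at 0.470, 0.306, 17.8 and 2.56 FPKM in the tumor cells and at 26.5, 995, 414, 653 and 79.6 in the fibroblasts (log2 difference -6.63 ± 1.24, adjusted p = 0.00253), without overlap. Ccl7, a monocyte chemokine, stood at 17.1, 0.584, 4.86 and 1.78 FPKM against 36.8, 1095, 754, 1377 and 136 (-6.24 ± 1.19, adjusted p = 0.00295). WT_CAF 5, which was highest for Acta2, was the lowest of WT_CAF 2 to 5 for both. Dpt (dermatopontin) differed by -6.95 ± 1.44 (adjusted p = 0.0046). Cxcl12, the ligand of Cxcr4, stood at 15.3, 3.77, 9.49 and 0.397 FPKM against 4.79, 439, 133, 2653 and 178 (-5.55 ± 1.42, adjusted p = 0.0138), overlapping through WT_CAF 1. The Cxcl12 call ended without WT_CAF 3 or WT_CAF 4 (adjusted p up to 0.0546).

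Saa3, the serum amyloid gene deleted in the knockout mice, is on the acute-phase list, of which 3 of 8 genes were lower and 0 higher, also in the reduced fit. It stood at 4.10, 2.75, 106 and 3.13 FPKM in the tumor cells and at 7.24, 892, 4278, 1182 and 2270 in the fibroblasts. WT_tumor 3 was above WT_CAF 1 and below the other 4. The log2 difference was -8.26 ± 1.72 (adjusted p = 0.00469), -5.99 without the format term (adjusted p = 0.0150) and -7.54 with WT_CAF 1 also left out (adjusted p = 0.000245). Hp (haptoglobin, a binder of free hemoglobin) stood at 0.618, 1.5, 3.19 and 0.365 FPKM against 5.45, 555, 200, 1200 and 405 (-7.63 ± 1.23, adjusted p = 0.00117), with no overlap. Complement genes were lower for 8 of 17, with 0 higher, and for 12 in the reduced fit: C2 stood at 0.199, 0.466, 4.86 and 0.348 FPKM against 5.08, 159, 122, 320 and 164 (-6.61 ± 0.91, adjusted p = 0.000557), and C1ra differed by -6.54 ± 1.03 (adjusted p = 0.00103). C3, the central component, had -6.85 ± 2.23 (adjusted p = 0.0419) with a listed 0 in KO_CAF 2 kept and -7.40 ± 1.26 (adjusted p = 0.0018) without it. The first call ended without WT_CAF 3, 4 or 5 or WT_tumor 1, 2 or 4 (adjusted p up to 0.188).

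Chemokines were lower for 7 of 24 genes (29.2%, against 12.5% over all genes), at a median of -1.47. The 2 higher were 8.33%, against 9.05% over all genes. In the reduced fit 10 were lower and 2 higher. Cxcl13, a B cell attractant, stood at 0.160, 0.0610, 0.381 and 0.04 FPKM in the tumor cells and at 0.0560, 59.9, 49.3, 574 and 57.5 in the fibroblasts (log2 difference -6.62 ± 1.33, adjusted p = 0.00396). The library labelled WT_CAF 1 fell within the tumor range. Ccl11 (eotaxin) stood at 0.165, 0.0951, 1.45 and 0.374 FPKM against 5.72, 292, 126, 290 and 72.6 (-6.33 ± 1.14, adjusted p = 0.00212). Those higher in tumor cells were Cxcl17, a mucosal chemokine, at 22.1, 37.9, 77.5 and 1.67 FPKM against at most 0.822 (3.96 ± 0.92, adjusted p = 0.00824), and Ccl20, at 6.35, 15.6, 12.6 and 0.293 FPKM against at most 0.410 (2.62 ± 0.76, adjusted p = 0.0253). The Cxcl17 call ended without WT_CAF 3 (adjusted p = 0.0782), and that of Ccl20, whose groups overlapped, without WT_CAF 3 or 4 or WT_tumor 1, 2 or 3 (adjusted p up to 0.115).

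Of the antigen presentation genes, all 6 MHC class II genes tested were lower in tumor cells, at a median of -2.76, 3 of them also without the format term and 6 in the reduced fit. In the knockout pair 1 of the 6 was called lower. The calls of H2-Aa, H2-Ab1 and H2-Eb1 ended without WT_CAF 3 (adjusted p = 0.101, 0.0859 and 0.0641). H2-DMb1, which loads class II molecules, stood at 0.353, 0, 2.39 and 0.0817 FPKM against 0.538, 14.6, 24.6, 15.1 and 21.9 (log2 difference -3.96 ± 0.69, adjusted p = 0.00179). Cd74, the invariant chain, stood at 9.59, 1.84, 10.2 and 5.13 FPKM against 0.647, 26.0, 64.2, 79.0 and 23.8 (-2.74 ± 0.90, adjusted p = 0.0432), a call that ended without WT_CAF 3 or 4 or WT_tumor 1, 2 or 4 (adjusted p up to 0.242). For both genes the library labelled WT_CAF 1 lay apart from WT_CAF 2 to 5, below every tumor library for Cd74 and below WT_tumor 3 for H2-DMb1. Of 10 class I genes, 5 were lower, and 9 in the reduced fit: Psmb8, an immunoproteasome subunit, stood at 1.62, 3.89, 4.08 and 0.331 FPKM against 3.36, 20.3, 56.8, 52.9 and 30.0 (-3.94 ± 0.58, adjusted p = 0.000749), and Tap2, a peptide transporter subunit, differed by -3.48 ± 0.53 (adjusted p = 0.000892). Of 20 interferon response genes 10 were lower, 5 without the format term and 11 in the reduced fit. Gbp2, a guanylate-binding protein, stood at 3.11, 0.657, 4.37 and 0.867 FPKM against 3.34, 15.7, 35.0, 27.5 and 19.4 (-3.36 ± 0.52, adjusted p = 0.000985).

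Of 27 cell cycle genes, 3 were called higher (11.1%, against 9.05% over all genes) and 0 lower (12.5% over all genes). The median was 0.92, with 26 of the 27 above 0, against 7190 of 13369 over all genes. Without the format term 0 were called higher, and 2 in the reduced fit. Foxm1, a driver of mitotic genes, stood at 12.9, 5.89, 6.71 and 6.91 FPKM in the tumor cells and at 7.59, 5.29, 4.07, 1.52 and 3.19 in the fibroblasts (log2 difference 1.31 ± 0.30, adjusted p = 0.00743), and lost its call without WT_tumor 1 (adjusted p = 0.0565). Trp53, floxed in both groups, stood at 1.38, 7.11, 4.34 and 1.97 FPKM against 2.85, 21.9, 34.7, 17.2 and 19.9. The tumor libraries lay below WT_CAF 2 to 5, and the library labelled WT_CAF 1 fell within their range. The difference was -2.66 ± 0.55 (adjusted p = 0.00435), and its call ended without WT_CAF 3 (adjusted p = 0.0527). FPKM is taken over the whole gene, so exons outside the deleted part count too.

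Of 20 p53 targets, 3 were higher (15%, against 9.05% over all genes) and 2 lower (10%, against 12.5%), at a median of -0.20. In the reduced fit 3 were higher and 4 lower. Perp, a desmosome protein that p53 induces, is also on the epithelial adhesion and junction list. It stood at 36.6, 82.4, 63.3 and 47.8 FPKM against 10.04, 1.46, 0.938, 0.837 and 11 (log2 difference 4.07 ± 0.63, adjusted p = 0.000953). Pmaip1 (NOXA, a death effector) stood at 29.0, 77.7, 41.9 and 22.7 FPKM against 2.11, 4.79, 10.3, 2.56 and 3.59 (2.60 ± 0.51, adjusted p = 0.00342). Fas, a death receptor, was lower, at 1.51, 2.92, 0.651 and 0.193 FPKM against 0.665, 9.78, 8.59, 14.9 and 9.94 (-2.26 ± 0.64, adjusted p = 0.0221). Perp and Pmaip1 did not overlap between the groups, and the Fas call ended without WT_CAF 3, WT_CAF 4 or WT_tumor 1 (adjusted p up to 0.112). MAPK feedback genes, which ERK signaling induces, held 6 higher and 1 lower of 18, at a median of 0.44 (7 and 2 in the reduced fit). Dusp5, an ERK phosphatase, stood at 98.4, 157, 130 and 144 FPKM against 22.7, 18.9, 27.8, 13.0 and 17.5 (2.56 ± 0.34, adjusted p = 0.000519), and Dusp6, another, at 123, 60.8, 61.1 and 73.5 against 54.3, 8.87, 8.28, 10.9 and 20.5 (2.78 ± 0.49, adjusted p = 0.00189). Both were apart in the groups.

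Of 19 oxidative phosphorylation genes 0 were called, also in the reduced fit. Of 28 glycolysis and hypoxia genes 0 were higher and 2 lower (2 and 4 in the reduced fit), and of 23 cholesterol and fatty acid genes 2 were higher and 1 lower (4 and 1). The lower one was Scd1, a fatty acid desaturase, at 1.06, 1.83, 1.77 and 13.0 FPKM against 68.8, 53, 27.8, 15.2 and 104 (log2 difference -3.50 ± 0.70, adjusted p = 0.00396). Among 20 glutathione genes 5 were higher (25%, against 9.05% over all genes) and 2 lower, and in the reduced fit 7 and 4. Gpx2, a peroxidase of gut epithelium, stood at 38.6, 36.2, 37.0 and 3.15 FPKM against 0, 0.594, 0.0595, 0.0568 and 1.09 (4.12 ± 0.68, adjusted p = 0.00133), and Gpx3, its secreted relative, at 53.3, 19.6, 31.1 and 36.8 against 98.2, 886, 709, 2354 and 912 (-4.49 ± 0.71, adjusted p = 0.00106). The 2 peroxidases thus parted between the compartments, each without overlap. Of 17 immediate early genes 0 were called, and 1 was lower in the reduced fit: Fos stood at 660, 926, 557 and 376 FPKM against 29.8, 1776, 1139, 3272 and 991 (-1.33 ± 1.19, adjusted p = 0.442).

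**Figure D4:**
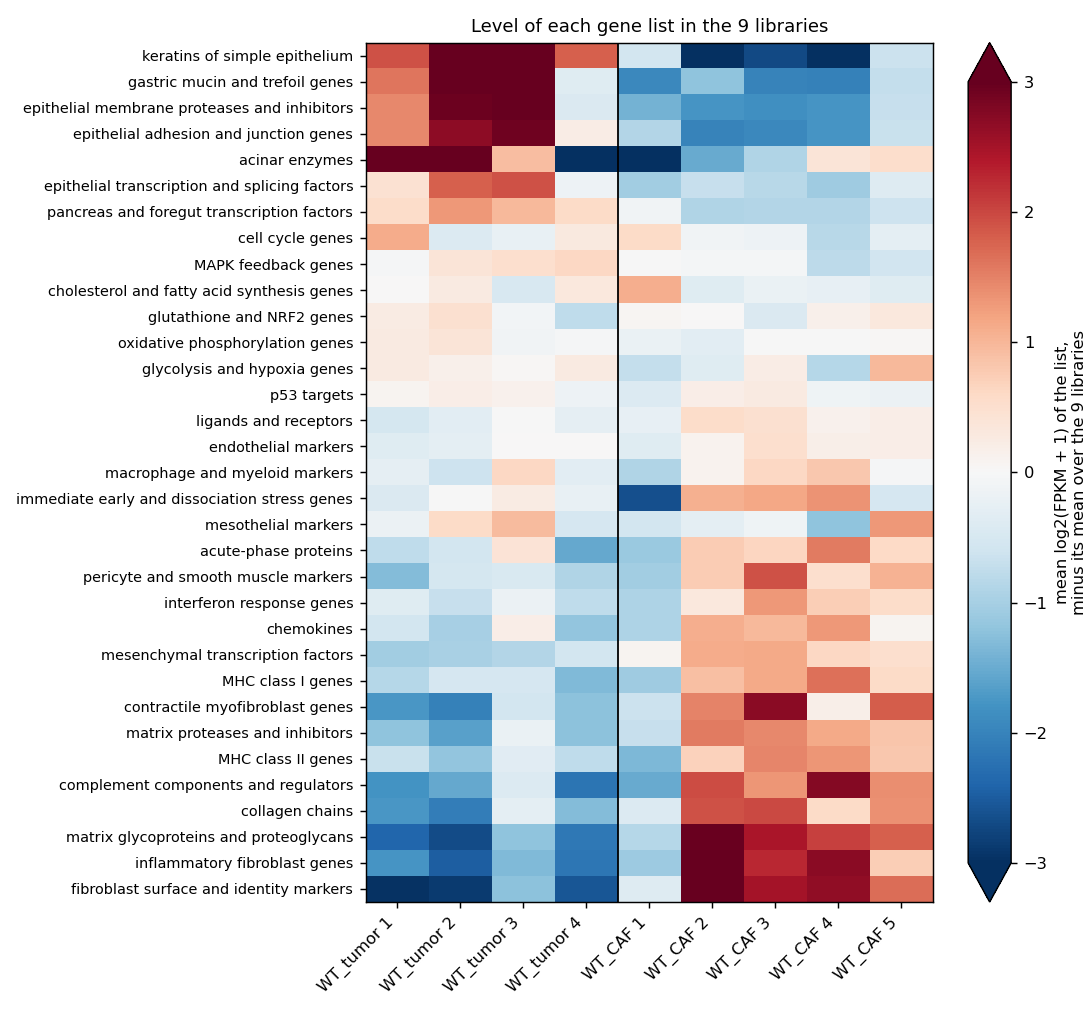
Mean log2(FPKM + 1) of each gene list in each of the 9 libraries, minus its mean over the 9 libraries, as a color scale. The library labelled WT_CAF 1 lies between the groups for the fibroblast list (4.32 against 6.38 to 7.89 in WT_CAF 2 to 5 and 1.73 to 3.48 in the tumor cells), and the acinar list ranges from 0.80 to 8.14 among the tumor libraries.

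Markers of other cell types were looked at in the same way. Of 16 macrophage genes 1 (Csf1r) was lower and 0 were higher (1 and 0 in the reduced fit), the Csf1r call ending without WT_CAF 3, 4 or 5 or WT_tumor 1 (adjusted p up to 0.0600), and the list summed to 82.8 to 312 FPKM in the tumor libraries, 94.7 to 275 in WT_CAF 2 to 5 and 108 in WT_CAF 1. Ptprc (CD45), the leukocyte surface marker, reached at most 1.29 FPKM in any of the 9, in WT_CAF 4. Only 2 of 12 lymphocyte markers were tested, 0 of them called in either fit, and the list summed to at most 6.19 FPKM in any library. Endothelial markers held 2 higher and 1 lower of 9, the same numbers as in the reduced fit. Pecam1 and Cdh5, which define endothelium, were below 1 FPKM in all 9 libraries, while Flt1, a VEGF receptor, was at 9.08, 10.9, 5.65 and 26.3 FPKM against 15.3, 0.366, 0.342, 1.75 and 0.738 (log2 difference 3.04 ± 0.74, adjusted p = 0.0104; 0.0615 without WT_CAF 3). Kdr, the member called lower, stood at 0.0960, 0.0610, 0.424 and 0.0735 FPKM against 0.0824, 2.43, 8.79, 1.23 and 29.3. Its log2 difference was -3.02 ± 0.75 (adjusted p = 0.0118), and its call ended without WT_CAF 3 (adjusted p = 0.072). The endothelial list had a median of -1.09, with 2 of 9 genes above 0. That list summed to 11.5 to 34.4 FPKM in the tumor cells, 17.5 to 47.4 in WT_CAF 2 to 5 and 17.1 in WT_CAF 1. Of 10 pericyte and smooth muscle genes 4 were lower, also 4 in the reduced fit, and the list summed to 80.4 to 239 FPKM in WT_CAF 2 to 5, 4.37 in WT_CAF 1 and 1.84 to 78.0 in the tumor cells. Its share in the fibroblast differences was not tested. Kcnj8, a pericyte potassium channel, stood at 0.0653, 0.115, 1.05 and 0.106 FPKM against 0.202, 25.8, 36.7, 44.9 and 70.4 (-5.32 ± 0.76, adjusted p = 0.000668).

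Mesothelial markers moved in both directions. Of 10 genes, 4 were higher and 4 lower (4 and 5 in the reduced fit), and 2 of the higher ones are the keratins Krt8 and Krt19. Msln (mesothelin, also made by pancreatic tumors) stood at 326, 460, 227 and 98.1 FPKM against 177, 12.2, 5.05, 3.42 and 63.1 (log2 difference 4.76 ± 1.18, adjusted p = 0.0115). Upk3b, a mesothelial uroplakin, stood at 0.0723, 0.511, 0.979 and 0 FPKM against 0.0353, 6.90, 11.6, 2.46 and 15.5 (-2.75 ± 0.85, adjusted p = 0.0339), and Slpi, a protease inhibitor, at 4.77, 7.22, 29.2 and 0.694 against 13.2, 136, 84.7, 53 and 443 (-4.25 ± 1.25, adjusted p = 0.0271). WT_CAF 5 was the highest fibroblast library for both. The Msln call ended without WT_CAF 3 (adjusted p = 0.0838), that of Upk3b without WT_CAF 3 or 5 or WT_tumor 1, 2 or 4 (up to 0.192) and that of Slpi without WT_CAF 3 or 5 or WT_tumor 1 or 4 (up to 0.0885). Of 4 islet genes 0 were called in either fit, although Ins2 (insulin) stood at 33.7 FPKM in WT_tumor 2 and is listed at 0 in the other 8 libraries.

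Ligands and receptors of 69 textbook pairs were read for the direction in which each partner was called. Both partners were tested in 63 pairs, and both were called in 14: in 3 the ligand was higher in fibroblasts and the receptor in tumor cells, in 1 the reverse, in 9 both were higher in fibroblasts and in 1 both were higher in tumor cells. Without the format term both partners were called in 9 pairs (1, 2, 4 and 2 in the same order), and in the reduced fit in 20 (3, 5, 9 and 3). The pairs are not independent: Fgf1, Fgf7 and Fgf10, all higher in fibroblasts, share the receptor Fgfr2. The Fgfr2 call ended without WT_CAF 3, 4 or 5 or WT_tumor 1 or 4 (adjusted p up to 0.138). That of Lgr5, paired with Rspo1, ended without any 1 of WT_CAF 3 to 5 or WT_tumor 1 to 4 (adjusted p up to 0.142). Of the 118 single genes tested, 20 were higher (16.9%, against 9.05% over all genes) and 37 lower (31.4%, against 12.5% over all genes), and in the reduced fit 24 and 39. The pairs named next were chosen after their values were seen. Hgf, the scatter factor, stood at 0.0907, 0.0126, 0.177 and 0.180 FPKM in tumor cells and at 0.398, 20.2, 6.01, 9.59 and 6.14 in fibroblasts (log2 difference -2.80 ± 0.80, adjusted p = 0.024), and its receptor Met at 15.0, 14.2, 15.0 and 12.1 against 8.37, 3.52, 3.25, 4.48 and 5.56 (1.52 ± 0.32, adjusted p = 0.0050). Neither partner overlapped between the groups, but the Hgf call ended without WT_CAF 3, WT_CAF 4 or WT_tumor 1 (adjusted p up to 0.1) and the Met call without WT_CAF 3 (0.0651). Igf1, an insulin-like growth factor, was lower in tumor cells by 5.38 ± 1 on the log2 scale (adjusted p = 0.0025), and its receptor Igf1r higher by 1.09 ± 0.27 (adjusted p = 0.012), a call that ended in the fit without the format term (adjusted p = 0.14) and without WT_CAF 3 (0.168). Tnfsf12 (TWEAK) was lower by 1.93 ± 0.41 (adjusted p = 0.0052; 0.055 without the format term and 0.0654 without WT_CAF 3) and its receptor Tnfrsf12a higher by 1.49 ± 0.40 (adjusted p = 0.018; up to 0.0930 without WT_CAF 4 or WT_tumor 1).

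In the other direction, and also chosen after its values were seen, Pdgfb, a platelet-derived growth factor, stood at 7.07, 5.46, 18.6 and 11.7 FPKM in tumor cells against 8.13, 0.218, 0.659, 0.210 and 0.170 (log2 difference 2.81 ± 0.57, adjusted p = 0.0041). Its receptor Pdgfrb stood at 0.254, 0.0835, 4.03 and 0.391 FPKM against 17.9, 44.9, 78.4, 93.5 and 40.2 (-5.38 ± 0.55, adjusted p = 0.00014). The library labelled WT_CAF 1 held the ligand at the level of the tumor cells and the receptor below the other fibroblasts. Of the 5 EGF-family ligands among the pairs, Areg, Hbegf and Tgfa were higher in tumor cells, and Ereg (-0.22 ± 0.69, adjusted p = 0.840) and Nrg1 (-0.21 ± 0.50, adjusted p = 0.792) were not called. Areg (amphiregulin) stood at 43.0, 62.0, 110 and 74.8 FPKM against 8.80, 4.28, 2.39, 2.18 and 5.05 (4.20 ± 0.45, adjusted p = 0.000177), and Hbegf differed by 2.95 ± 0.51 (adjusted p = 0.00177) and Tgfa by 2.46 ± 0.41 (adjusted p = 0.0014). Egfr, the receptor of Areg, Hbegf and Tgfa, was not called, at 11, 9.27, 15.6 and 15.7 FPKM against 4.39, 53.9, 25.1, 71.2 and 35.7 (-1.53 ± 0.69, adjusted p = 0.13), and with WT_CAF 1 and the format term left out it was lower (-1.70, adjusted p = 0.0056). Wnt7b, a Wnt ligand of epithelium, stood at 59.9, 39.5, 64.1 and 21.9 FPKM against 27.0, 0.443, 0.635, 0.526 and 1.90 (4.65 ± 0.79, adjusted p = 0.00153). Npnt (nephronectin, a matrix ligand of integrins) stood at 118 FPKM in the library labelled WT_CAF 1, within the range of the tumor cells at 67.4, 69.4, 48.0 and 125, against 4.23, 7.05, 0.927 and 19 in WT_CAF 2 to 5 (3.53 ± 1.04, adjusted p = 0.0271, ended without WT_CAF 3 or 4 or WT_tumor 1 or 4). Gas6, the ligand of Axl, was on the fibroblast side, at 4.52, 26.1, 60.5 and 0.608 FPKM against 19.4, 704, 176, 1343 and 951 (-5.73 ± 1.49, adjusted p = 0.0149; 0.0795 without WT_tumor 1).

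**Figure D5:**
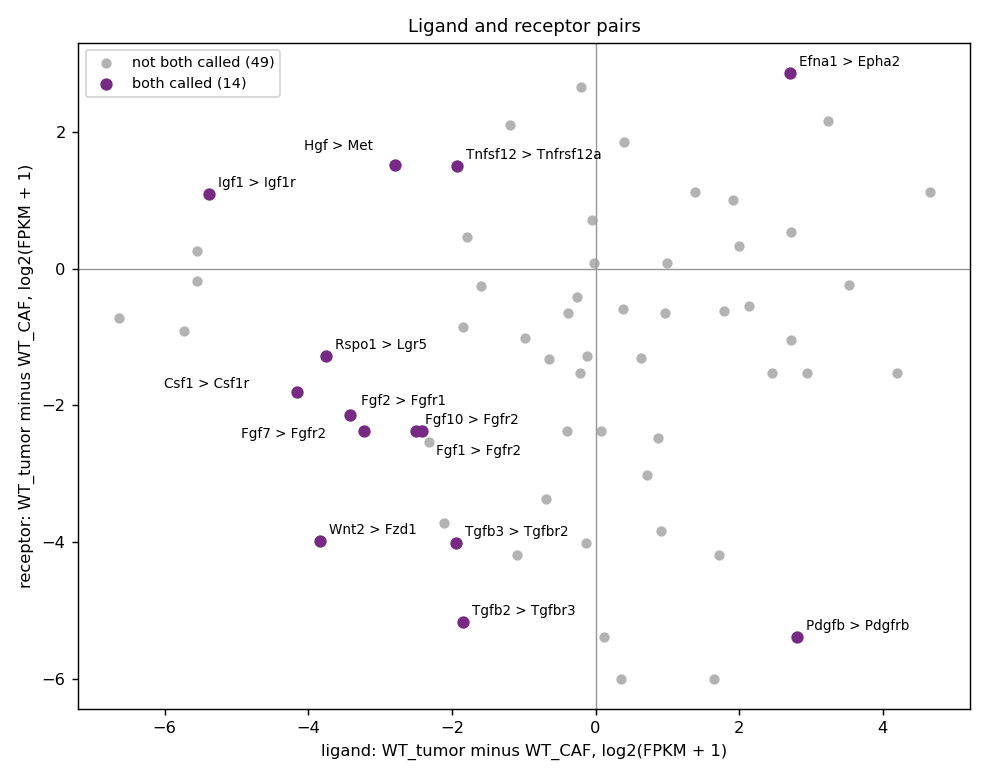
Log2 difference of the ligand against that of its receptor for the 63 pairs with both partners tested; each point is 1 pair and filled, labelled points are the 14 with both partners called. Most labelled pairs lie where both partners are higher in fibroblasts.

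The pair of groups without Saa3, which shares no library with these 9, gave 1741 genes higher in KO_tumor than in KO_CAF (13%) and 2057 lower (15.4%). Both pairs were fitted in the same model and share its estimate of spread and its format term, so their calls are not independent. Of the 1210 genes higher in the wild-type tumor cells, 933 were called higher there too and 1 lower, and 1208 had the same sign. Of the 1670 lower, 1387 were called lower and 0 higher, and 1663 had the same sign. The share with the same sign over all genes was not counted. For Krt8 the knockout difference was 6.86 ± 1.24 (adjusted p = 0.0016), for Cdh17 5.07 ± 0.56, for Mmp2 -8.22 ± 1.10 and for Pdgfra -6.35 ± 0.63. Saa3 stood at 0.347, 0 and 0 FPKM in KO_tumor and at 1.85, 1.16 and 0.434 in KO_CAF. The test of the difference between the wild-type and knockout differences called 0 genes (185 at an unadjusted p under 0.05), and 1, Mpp6, in the fit without the format term (215 unadjusted). Even Saa3, deleted in the knockout, was not called, at a difference of -8.26 ± 1.72 in wild type and -0.90 ± 1.75 in the knockout pair. A gene not called by this test can thus still differ between the pairs. Mpp6, a membrane scaffold protein chosen after its values were seen, stood at 32.0, 24.0, 32.7 and 17.5 FPKM in WT_tumor, at 10.8, 3.79, 3.85, 5.17 and 12.5 in WT_CAF, at 41.4, 64.9 and 40.3 in KO_tumor and at 131, 182 and 137 in KO_CAF. The wild-type tumor cells thus lay above their fibroblasts and the knockout tumor cells below theirs, with an adjusted p of 0.0788 for the change of -3.66, 0.0451 without the format term, and, leaving out 1 library with the term kept, from 0.0195 (without WT_CAF 5) to 0.939 (without WT_CAF 3). It was under 0.05 without WT_CAF 1, 2 or 5 and above it without any other of the 9 libraries, and stood at 0.708 with every library rescaled to an equal sum.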

How the data were processed

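Poly(A) RNA of cells sorted from fresh tumor and pancreas went through an Illumina TruSeq RNA kit and a HiSeq2000, as the labels' protocols state. FPKM values of 23951 gene symbols in 18 libraries make up the table that the authors deposited. The tools named, with no order, are Cuffnorm, Cufflinks 2.2.1, SAMtools 0.1.19, Bowtie 1.0.0, TopHat2 2.0.10 and FastQC, and the builds are hg19, GRCh37 and mm9, per the submitters' processing notes. Their settings are not stated there. FPKM is modelled, and a well expressed gene may carry a 0 where estimation failed (at 0 while 2 or more other libraries of its group are above 0 and all of those are at 50 FPKM or more). These genes get no mean. No counts were used. Among values under 0.1 FPKM, the ratios between the 9 libraries gathered in no sharp step (the fullest log2 bin of 0.05 took 2.79% of genes at the median of 36 pairs, 13.9% at most), so the depth is unknown.

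The test was limma 3.58.1 under R 4.3.3 (eBayes, trend on) applied to log2(FPKM + 1), two-sided, with Benjamini-Hochberg adjustment over 13369 genes that had 1 FPKM or more in at least 3 of the 18 libraries (10582 had not). All 18 libraries, normal fibroblasts included, entered 1 model with the group and the form of the index in the description label (none, 6 bases or 16 bases), with 11 residual degrees of freedom. The index form is taken as a library format; the labels do not call it a batch. Genes with adjusted p under 0.05 were called. Differences on the log2(FPKM + 1) scale understate changes of low genes. The series design calls the libraries biological replicates; replicate numbers follow the deposition order and pair no samples.

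The groups, the 35 gene lists and the pairs were chosen with earlier results of these data known, so list counts are descriptions. Genes named are the 12 higher and the 12 lower with the largest difference among those called, where the higher group averaged at least 5 FPKM, without overlap or a failed zero. To these are added up to 4 called genes in each direction of each list (or the first 2 tested where a list has none), and Saa3, Trp53, Krt8, Cdh17, Mmp2 and Pdgfra. Not every one of the 138 is described, and others are marked as chosen after their values were seen. Alternatives were another pseudocount, filter, scaling, model or set of libraries. The model was tested on simulated data. An allele of the mice and 1 of the named genes are not reported here.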

Additional observations from a re-analysis of the deposited data

Results flagged for a closer look

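The highest or lowest library of each group was compared with the rest of its group, on log2(FPKM + 1), for 137 of the 138 named genes. Of 259 sets, 54 held a value whose gap to the nearest other library, over the group's range, was past Dixon's 95% critical value. Chance gives such a value in about 1 in 20 groups. The genes share libraries, so the sets are not independent. Of the 54, 28 were in the library labelled WT_CAF 1, 12 in WT_tumor 3, 3 each in WT_CAF 5, WT_tumor 1 and WT_tumor 4, 2 each in WT_CAF 4 and WT_tumor 2, and 1 in WT_CAF 2.

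In the library labelled WT_CAF 1, genes of fibroblast matrix and surface stood below WT_CAF 2 to 5: Mgp at 88.8 FPKM, Cpxm1 at 20.1, Mmp2 at 35.9, Pi16 at 12, Serpinf1 at 51.5, Mfap4 at 8.11, Mfap5 at 25.4, Itm2a at 32.5, Col1a2 at 136, Kcnj8 at 0.202, Abcc9 at 0.141 and Pdgfra at 9.79. So did inflammatory, complement, presentation and early genes: C1s1 at 12.5 FPKM, Serping1 at 58.6, C3 at 58.3, Saa3 at 7.24, C2 at 5.08, Cxcl14 at 5.46, H2-DMb1 at 0.538, Tap1 at 0.753, Fas at 0.665 and Fos at 29.8. Other genes stood above WT_CAF 2 to 5 there: Foxa2 at 6.83 FPKM, Onecut2 at 7.17, Pdx1 at 17.7, Flt1 at 15.3, Wnt7b at 27.0 and Snora7a at 21.9. These values share 1 library.

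In WT_tumor 3, fibroblast genes stood above the other tumor libraries: Cpxm1 at 9.06 FPKM, C1s1 at 8.67, Itm2a at 30.2, Col14a1 at 4.73, Serping1 at 104, Wt1 at 2.81, Saa3 at 106, C2 at 4.86, C1ra at 3.66, Cxcl14 at 29.0, Des at 4.27 and Kcnj8 at 1.05. In WT_CAF 5, epithelial genes stood above the other fibroblast libraries: Cldn7 at 10.6 FPKM, Elf3 at 9.19 and Tmprss2 at 2.66. WT_CAF 2 was highest for Gkn1 at 2.01 FPKM, and WT_CAF 4 for the leukocyte genes Ptprc at 1.29 and Cd2 at 1.47. WT_tumor 1 was lowest for Lad1 at 73.0 FPKM and Fosb at 17.7 and highest for Ndufa1 at 265. WT_tumor 2 was highest for the insulin genes Ins1 at 3.40 FPKM and Ins2 at 33.7. WT_tumor 4 was highest for Scd1 at 13.0 FPKM and Cd3e at 1.33 and lowest for Gpx2 at 3.15.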

How the results depend on the processing

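The counts over all genes kept within 1.5 times their value under another pseudocount, filter, scaling, variance model or treatment of failed zeros, and without the format term. With only these 9 libraries in the model, 238 genes were higher and 504 lower with the format term, and 671 and 980 without it; fewer libraries then estimate the spread. Leaving out 1 of the 9 libraries gave 436 to 1554 genes higher and 758 to 2003 lower, the low ends without WT_CAF 3. The test between the wild-type and knockout differences called 1 gene without the format term, also with WT_CAF 1 or WT_tumor 4 left out of that model, and 1 with a pseudocount of 5; leaving out 1 library gave 0 to 1. The cause was not tested. Rescaling every library to an equal sum moved the median of all genes from 0.07 to 0.24 and reversed no list median and no named gene. Of 126 named genes called, 0 reversed under the 24 alternatives, 2 of which were added after seeing the data, and 58 stayed called in every one. Of these 126, 107 were called without the format term, 122 with WT_CAF 1 also left out, and 70 without any 1 library. Genes that were not called changed sign in some settings. Fosb came to 0.0611 without the format term (all libraries, and the 9 alone) and 0.281 with WT_CAF 1 and 2 also left out. Ndufa4 came to 0.0730 in the first of these settings, with all libraries or the 9 alone, and to 0.241 with WT_tumor 4 also left out. Leaving out 1 library, Ndufa4 ranged from -0.383 to 0.302, Ndufa1 from -0.753 to 0.0643, Ptprc from -0.360 to 0.125 and Cd2 from -0.548 to 0.0253. No paired analysis was possible because the labels carry no replicate numbers. Depth is unknown, so low values carry no interval.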
